A study of Rattus norvegicus with 16 samples.

Results

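The NRF2 pathway is the main transcriptional defence of liver cells against oxidants and electrophiles. The adaptor KEAP1 holds the transcription factor NRF2 (gene Nfe2l2) in the cytosol and directs its ubiquitination, and electrophiles or oxidants that modify KEAP1 let NRF2 reach the nucleus. There it pairs with small MAF proteins on antioxidant response elements and drives genes for glutathione synthesis, thioredoxin reduction, quinone reduction, epoxide hydrolysis and heme breakdown. The quinone reductase gene Nqo1 is a textbook target of a second pathway too, that of the aryl hydrocarbon receptor (AhR), which binds dioxin-like compounds and acts on xenobiotic response elements. The 10 genes described here, chosen by name as members of the NRF2 pathway other than glutathione transferases, are Nfe2l2, Keap1, Gclc, Gclm, Txnrd1, Srxn1, Nqo1, Akr7a3, Ephx1 and Hmox1. Their choice was made with earlier results of these data known. They were matched to the array through RefSeq transcript numbers and gene names, which gave 11 of its 30367 probes. Of the 10 genes 9 entered the tests, among 13146 transcripts in all.

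Liver RNA of male Sprague-Dawley rats was measured at 21 days of age on 16 arrays with 2 colours, the liver in Cy5 and a common rat reference RNA, made from 14 cell lines, in Cy3. Pups of group C came from dams given corn oil alone. The dams of groups 0.5M and M received, in corn oil, organochlorine pesticides, polychlorinated biphenyls (PCBs) and methyl mercury as a mixture, at 0.5 and 1.0 mg/kg/day. Those of group AhR received a blend of AhR agonists (dibenzodioxins and dibenzofurans, both polychlorinated, and non-ortho PCBs) with a total dose, as dioxin equivalents, of 1.8 ng/kg/day. In the labels the complete developmental exposure runs from conception to postnatal day 20, and the pups of these 4 groups stayed with their birth mothers. Each group held 4 arrays, and each array the pooled RNA of 2 pups. Replicates 1 and 2 were on one slide, replicates 3 and 4 on the other. Littermates are not identified in the labels. If arrays of a group held pups of the same litter, the p-values below understate the error.

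Promoter sequences are shown for the 4 genes with the largest differences between M and C, since these are the members whose pattern across arrays the results turn on. Windows are the 250 bases before the annotated start, from RefSeq on rat build GRCr8, read 5′ to 3′ on the gene's strand. Capitals mark a match to the core of the antioxidant response element (TGACNNNGC, or GCNNNGTCA on the other strand) or of the xenobiotic response element (GCGTG, or CACGC). The windows lie at chr13:95263118-95263367 (Ephx1, minus strand, the downstream one of its 2 annotated starts), chr5:156876471-156876720 (Akr7a3, plus), chr19:52220268-52220517 (Nqo1, minus) and chr3:161064562-161064811 (Srxn1, plus).
Ephx1: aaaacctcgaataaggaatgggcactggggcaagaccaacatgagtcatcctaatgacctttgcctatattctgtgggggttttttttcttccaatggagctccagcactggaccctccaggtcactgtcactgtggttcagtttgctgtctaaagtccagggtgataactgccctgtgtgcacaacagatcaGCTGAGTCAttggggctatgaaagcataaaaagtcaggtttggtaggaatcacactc
Akr7a3: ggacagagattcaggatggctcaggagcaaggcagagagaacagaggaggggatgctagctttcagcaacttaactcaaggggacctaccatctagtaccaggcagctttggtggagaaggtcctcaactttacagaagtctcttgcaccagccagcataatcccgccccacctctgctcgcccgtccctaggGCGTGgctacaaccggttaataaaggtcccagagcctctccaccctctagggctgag
Nqo1: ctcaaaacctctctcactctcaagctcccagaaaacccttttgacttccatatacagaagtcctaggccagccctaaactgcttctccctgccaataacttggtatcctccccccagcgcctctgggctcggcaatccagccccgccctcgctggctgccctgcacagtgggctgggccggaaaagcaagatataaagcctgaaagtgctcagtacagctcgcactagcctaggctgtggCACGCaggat
Srxn1: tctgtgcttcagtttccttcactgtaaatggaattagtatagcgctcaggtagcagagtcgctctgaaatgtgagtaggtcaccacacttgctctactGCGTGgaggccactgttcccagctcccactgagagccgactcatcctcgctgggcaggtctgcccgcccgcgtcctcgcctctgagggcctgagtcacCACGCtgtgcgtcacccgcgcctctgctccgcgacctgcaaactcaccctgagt

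In Ephx1 the capitals are an antioxidant element core at positions -57 to -49 from the start of the printed window. The window of its other annotated start, farther upstream, held neither core. Akr7a3 and Nqo1 each hold a single xenobiotic element core, in Nqo1 at positions -10 to -6, and Srxn1 holds 2. Of the 9 members with a window in the table, 3 held an antioxidant element core (Gclm, Txnrd1 and Ephx1) and 6 a xenobiotic element core (Keap1, Gclc, Txnrd1, Srxn1, Nqo1 and Akr7a3). Over 27457 genes with such windows the shares were 11% and 28.4%. Of 31 further NRF2 pathway genes with a window, taken from the list described below, 8 held an antioxidant element core and 17 a xenobiotic element core. Nfe2l2 held neither. A match shows only that these letters occur, and a window without one says nothing about elements farther away.

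**Figure D1:**
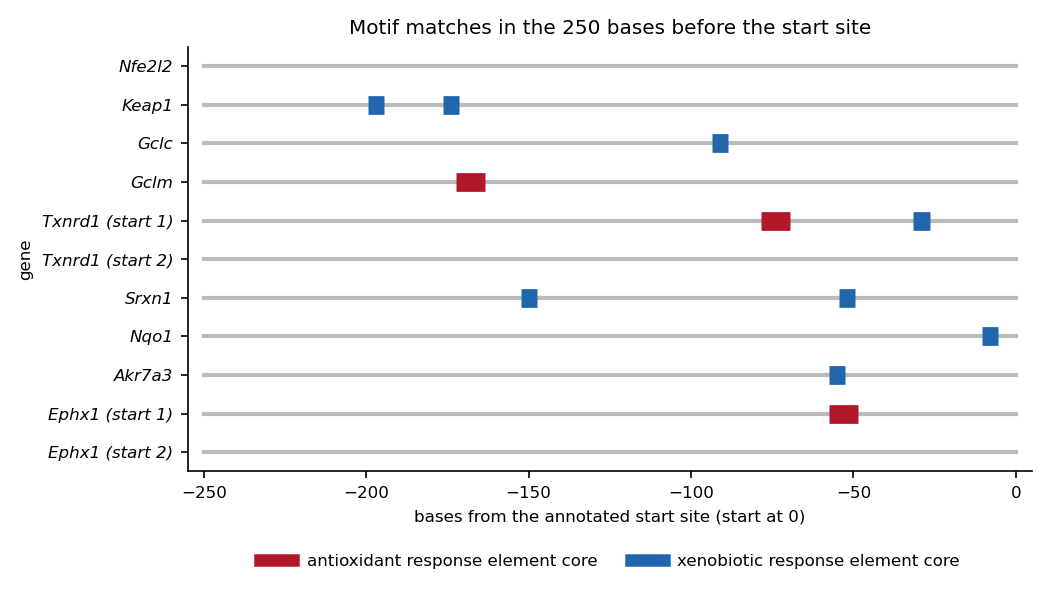
Matches to the 2 motif cores in the 250 bases before the annotated start of 9 NRF2 pathway genes, by distance from the start in bases; Txnrd1 and Ephx1 have 2 annotated starts each. Red bars (antioxidant element) are seen for Gclm, Txnrd1 and Ephx1, blue bars (xenobiotic element) for 6 genes.

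All values are log2 ratios of liver to reference, so that 0 means equal signal in both and a step of 1 a doubling. Ratios are compared between groups for a gene, never between genes. On an array of slide 1, 7082 to 13824 probes were marked well above background in Cy5, and on one of slide 2 13006 to 15686. The lowest count, 7082, was that of array 1 of M. Differences between M and C had a median standard error of 0.104 over all transcripts, with 11 residual degrees of freedom. The number of arrays limits the precision. The 6 hepatocyte markers read at or above the 99.7th percentile of Cy5 signal on every array. Exposure was visible in cytochrome P450 genes: Cyp1a1, the classic AhR target, was 4.58, 3.74 and 2.46 above C in M, 0.5M and AhR (limma, adjusted p = 6.52e-10, 1.41e-08 and 7.26e-06). Cyp1a2, another AhR target, was 1.76 above C in M (adjusted p = 3.55e-05), against 0.85 in 0.5M (0.268) and 0.21 in AhR (1). Cyp2b2, a target of the receptor CAR, was 3.16 and 1.87 above C in M and 0.5M (adjusted p = 1.18e-06 and 0.00181) and 0.26 in AhR (adjusted p = 1).

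Some arrays carried transcripts of other tissues. Of 8 skeletal muscle markers 7 are on the array, and their summed Cy5 signal was 37000 in array 2 of M and 42600 in array 4 of 0.5M, against 557 to 1400 elsewhere (559 to 972 in C, 572 to 1170 in AhR). Each of the 7 was marked well above background on at least 1 array, and on at least 1 array none was. The 6 stellate cell and fibroblast markers summed to 29600 and 19800 in the same arrays, against at most 10600 elsewhere. Of 8 exocrine pancreas markers, summed, array 1 of M held 2670 and array 2 of AhR 1270, against at most 742 elsewhere, and Pnlip never stood well above background. Fat markers (5 of 6 on the array) summed to 1620 in array 2 of C and at most 803 elsewhere, with Lep never well above background. The 8 macrophage markers summed to 14300 to 19800 in C, 12900 to 19300 in 0.5M, 15700 to 22800 in M and 17100 to 20600 in AhR. The 4 bile duct and the 4 red cell precursor markers on the array summed to 427 to 511 and to 2210 to 5040 over all arrays. No tested marker of these lists passed the test in a comparison with C. In liver tissue, fewer cells of a type and less RNA per cell cannot be told apart.

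No member passed the test in any comparison. With limma, adjusted over all transcripts, 0 of 9 were called between M and C (42 transcripts, 0.319%), 0.5M and C (0.0152%), AhR and C (0.00761%), M and 0.5M (0.0152%), M and AhR (0.266%) and 0.5M and AhR (0.0228%). The F-test over the 4 groups called 0 of 9 as well (0.175%). At an unadjusted p under 0.05, 5 members were higher in M than in C (Ephx1, Akr7a3, Nqo1, Srxn1 and Nfe2l2), where 4.53% of all transcripts were higher at that level, and none was lower (background 5.61%). The same level was reached by 4 members, all higher, in 0.5M against C (Nfe2l2, Gclc, Nqo1 and Ephx1; background 2.61% higher, 3.92% lower) and by none in AhR against C (background 1.99% higher, 1.77% lower; 3 members on slide 2 alone). It was reached by 3 members in M against AhR (Nfe2l2, Nqo1 and Ephx1; background 4.34%), by Nfe2l2 in 0.5M against AhR (3.1%) and by none in M against 0.5M (3.89%; 4 without array 2 of 0.5M and 3 without array 2 of M), and in the F-test by 4 (Nfe2l2, Nqo1, Akr7a3 and Ephx1; 9.36%). The median member difference was 0.41 for M, 0.36 for 0.5M and 0.22 for AhR, against -0.002, -0.003 and 0.0002 over all transcripts. The 3 comparisons share the C arrays. Since the members were chosen with earlier results of these data known, counts set beside background shares, here and below, are descriptions only.

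**Figure D2:**
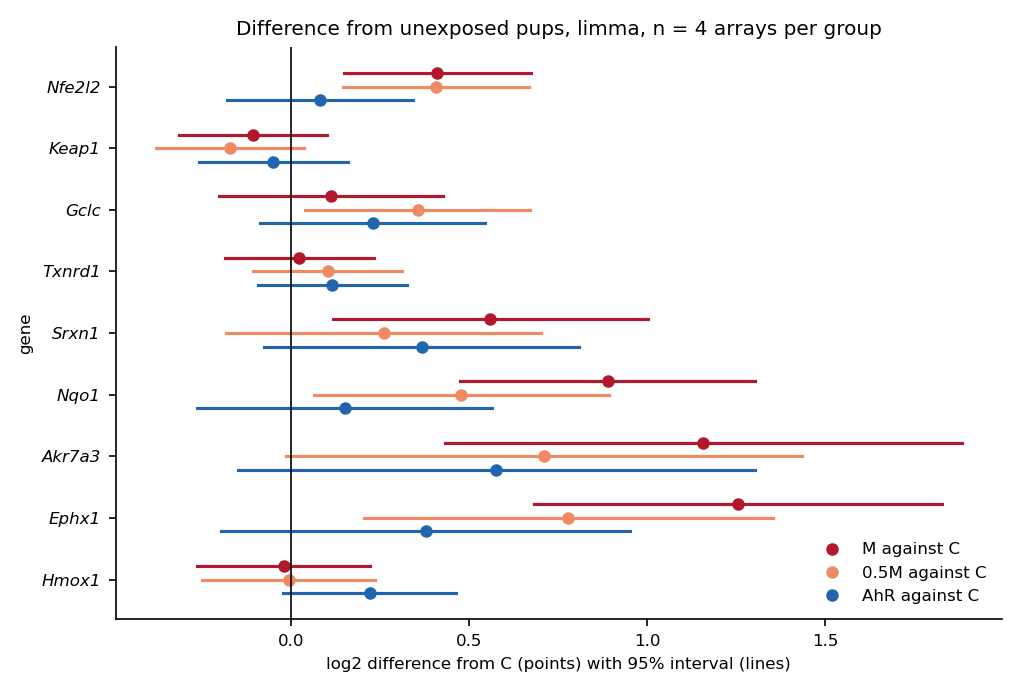
Log2 difference from C (points) with its 95% interval (lines) for 9 members in M, 0.5M and AhR, 4 arrays per group, from limma. In M the intervals of Ephx1, Akr7a3, Nqo1, Srxn1 and Nfe2l2 lie above 0, and in AhR every interval spans 0.

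Among the regulators, Nfe2l2, which encodes NRF2 itself, read -0.80, -0.46, -0.25 and -0.33 in C, -0.05, -0.01, -0.02 and -0.11 in M, -0.01, -0.09, -0.25 and 0.15 in 0.5M, and -0.57, -0.39, -0.52 and -0.03 in AhR. All 4 M arrays lay above all C arrays and close together, as did 3 of 4 in 0.5M, while AhR overlapped C. The difference was 0.41 ± 0.12 (SE) in M, or 1.33-fold (adjusted p = 0.215), and 0.41 ± 0.12 in 0.5M (adjusted p = 0.604). Between the 2 doses it was 0.004, with a 95% interval of -0.26 to 0.27. Within slides the M difference was 0.60 on slide 1 and 0.22 on slide 2. In AhR it was 0.08 (interval -0.18 to 0.34). Keap1, the inhibitor of NRF2, differed from C by -0.11 in M, -0.17 in 0.5M and -0.05 in AhR, and its 12 exposed arrays ranged from -0.58 to -0.10 against -0.28 to -0.13 in C. In M and in 0.5M 3 of 4 arrays lay below every C array, and in AhR 1 did. Above every C array lay 1 array of M and 1 of AhR. The groups overlapped for Keap1 in every comparison, with intervals that reach from -0.38 to 0.16 for the 3 comparisons with C.

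Glutathione synthesis rests on glutamate-cysteine ligase, whose catalytic subunit is Gclc and whose modifier subunit is Gclm. Gclc read -0.66, -0.11, -0.03 and 0.20 in C and 0.36, 0.13, 0.30 and 0.03 in 0.5M, so that 2 of the 4 arrays of 0.5M lay above the highest C array and the groups overlapped. The difference was 0.36 ± 0.15 in 0.5M (adjusted p = 0.738), 0.63 on slide 1 and 0.08 on slide 2. It was 0.11 in M (interval -0.20 to 0.43) and 0.23 in AhR (-0.09 to 0.55). Array 1 of C was the lowest of all 16 arrays for Gclc. Without it the 0.5M difference was 0.20. The Gclm probe reached the mark of well above background on none of the 16 arrays and was not tested.

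In the thioredoxin branch, Txnrd1, the cytosolic thioredoxin reductase, stayed between -0.33 and 0.08 on all 16 arrays. Its differences from C were 0.02 in M (interval -0.19 to 0.23), 0.10 in 0.5M (-0.11 to 0.31) and 0.12 in AhR (-0.09 to 0.33), and the groups overlapped. These values rest on the brighter of its 2 probes. The other stood well above background on 6 of the 16 arrays. With the mean of both probes the M difference was 0.11 (limma, adjusted p = 0.662). Srxn1, the sulfiredoxin that restores over-oxidised peroxiredoxins, read -0.41, -0.02, -0.09 and -0.30 in C, 0.50, 0.28, 0.04 and 0.60 in M, -0.29, 0.53, -0.23 and 0.22 in 0.5M, and 0.11, -0.39, 0.27 and 0.67 in AhR. All M arrays lay above all C arrays, the lowest M array by a small margin, while 0.5M and AhR held arrays both within and above the range of C. The difference from C was 0.56 ± 0.21 in M (1.47-fold, adjusted p = 0.338), 0.26 ± 0.21 in 0.5M (adjusted p = 0.825) and 0.37 ± 0.21 in AhR (adjusted p = 1). Without array 2 of 0.5M the 0.5M difference was 0.07. The AhR difference was 0.07 on slide 1 and 0.66 on slide 2.

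The largest differences were in 3 detoxication enzymes. Nqo1, which reduces quinones and spares cells their redox cycling, read 0.21, -0.16, 0.41 and -0.13 in C, 0.55, 0.77, 0.94 and -0.02 in 0.5M, 1.23, 0.59, 1.06 and 1.00 in M, and 0.36, -0.05, 0.36 and 0.25 in AhR. Every M array lay above every array of C and of AhR, 3 of 4 in 0.5M lay above C, and no AhR array did. The lowest array of M (replicate 2) and of 0.5M (replicate 4) were those with muscle transcripts. The difference from C was 0.89 ± 0.19 in M, or 1.85-fold (interval 1.39 to 2.47), with an adjusted p of 0.0710. It was 0.48 ± 0.19 in 0.5M (1.39-fold, adjusted p = 0.738) and 0.15 ± 0.19 in AhR (1.11-fold, adjusted p = 1). Within slides the M difference was 0.88 and 0.90. Without the 2 arrays with muscle transcripts it was 1.00 (adjusted p = 0.00516), past the threshold. Leaving out array 4 of 0.5M or array 2 of M alone also brought it past (adjusted p = 0.0123 and 0.0373). Without array 4 of 0.5M the difference stayed at 0.89 and only its standard error fell, to 0.15. Over all arrays left out 1 at a time, the adjusted p ranged from 0.0123 to 0.297. The M difference then ranged from 0.79 (without array 1 of M) to 1.02 (without array 2 of M). Without all 5 arrays that carried other tissues it was 0.86 (limma, adjusted p = 0.0632), not past the threshold.

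Ephx1, the microsomal epoxide hydrolase that opens epoxides to diols, read -1.22, -1.21, -0.32 and -1.29 in C, -1.03, 0.10, 0.43 and -0.43 in 0.5M, 0.44, -0.59, 0.48 and 0.65 in M, and -1.07, -0.997, -0.07 and -0.39 in AhR. In M 3 arrays lay above all of C, and the groups met only through array 3 of C, high in its group, and array 2 of M, low in its own. The difference from C was 1.26 ± 0.27 in M, or 2.39-fold (interval 1.61 to 3.55), with an adjusted p of 0.0641. It was 0.78 ± 0.27 in 0.5M (1.72-fold, adjusted p = 0.657) and 0.38 ± 0.27 in AhR (adjusted p = 1). The M difference was 1.14 on slide 1 and 1.37 on slide 2. It was 1.44 without the 2 arrays with muscle transcripts (adjusted p = 0.0204). Leaving out 1 array brought it past the threshold in 3 cases: array 2 of M (adjusted p = 0.0286), array 2 of 0.5M (0.0405) and array 4 of 0.5M (0.0482). With each array left out in turn, the adjusted p ranged from 0.0286 to 0.268. The M difference then ranged from 1.05 (without array 4 of C) to 1.45 (without array 2 of M). Without all 5 arrays that carried other tissues it was 1.27 (limma, adjusted p = 0.154), not past the threshold.

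Akr7a3, a reductase of aflatoxin aldehydes, read -2.52, -2.77, -2.56 and -2.71 in C, -0.89, -2.30, -1.85 and -0.89 in M, -2.72, -0.92, -1.99 and -2.10 in 0.5M, and -1.79, -2.53, -2.14 and -1.81 in AhR. The C arrays were tightly grouped and below every M array, whereas the exposed arrays were spread widely, with 3 of 4 above C in both 0.5M and AhR. The difference from C was 1.16 ± 0.34 in M (2.23-fold, interval 1.35 to 3.69, adjusted p = 0.206), 0.71 ± 0.34 in 0.5M (adjusted p = 0.748) and 0.58 ± 0.34 in AhR (1.49-fold, adjusted p = 1). In 0.5M array 2 alone stood well above the other 3. Without it the 0.5M difference was 0.34. With 1 array left out at a time, the M difference ranged from 0.93 (without array 1 of M) to 1.45 (without array 2 of M). Hmox1, the heme oxygenase that releases iron and biliverdin from heme and a common marker of acute oxidative stress, ranged from -0.25 to 0.38 over the 16 arrays. It differed from C by -0.02 in M (interval -0.26 to 0.22), -0.01 in 0.5M (-0.25 to 0.24) and 0.22 in AhR (-0.02 to 0.46), and the groups overlapped. The AhR difference in Hmox1 was 0.05 on slide 1 and 0.39 on slide 2.

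**Figure D3:**
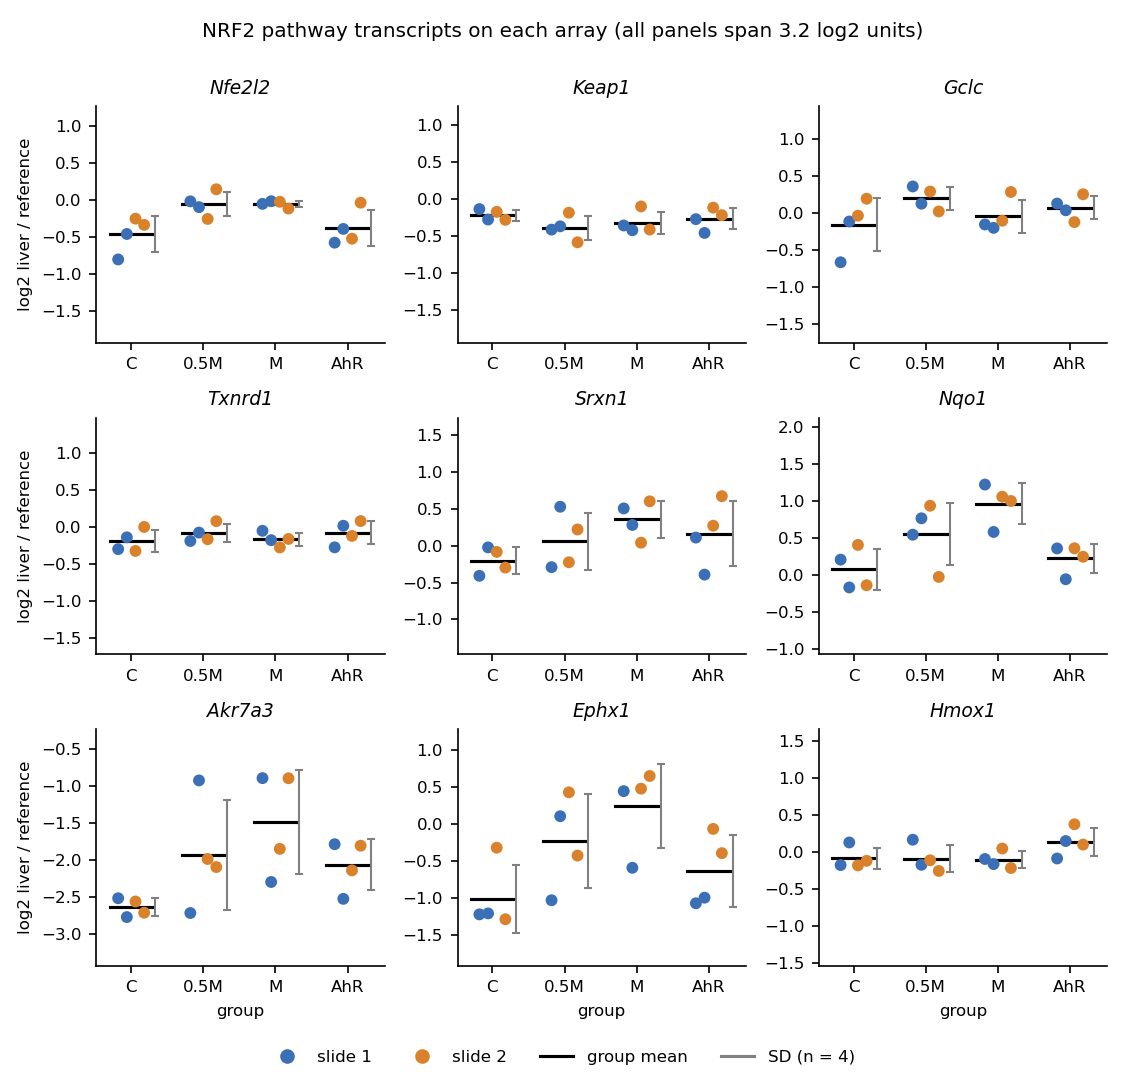
Log2 ratio of liver to reference on each array (points, coloured by slide) for 9 members in the 4 groups, with group means (black) and SD (grey, n = 4); every panel spans the same range of log2 units. M lies above C without overlap in Nfe2l2, Srxn1, Nqo1 and Akr7a3, and Keap1, Txnrd1 and Hmox1 show little spread.

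Arrays of M lay above all C arrays without overlap for 4 of 9 members (Nfe2l2, Srxn1, Nqo1 and Akr7a3), against 2.11% of all transcripts. Between M and AhR this held for Nqo1 alone (background 1.77%), where the difference was 0.74 ± 0.19 (adjusted p = 0.180). Ephx1 differed between M and AhR by 0.88 ± 0.27 (adjusted p = 0.266) and Nfe2l2 by 0.33 ± 0.12 (adjusted p = 0.369). Group means stood in the order C, 0.5M, M for 5 of 9 members (background 18.5%), with Nfe2l2 nearly level between the doses. Between M and 0.5M the differences were 0.41 for Nqo1 (interval -0.003 to 0.82), 0.48 for Ephx1 (-0.10 to 1.05), 0.45 for Akr7a3 (-0.28 to 1.17) and 0.30 for Srxn1 (-0.14 to 0.74), so that a difference between the doses was not resolved for any of these. Leaving out 1 array moved these values widely. Without array 2 of 0.5M they were 0.50, 0.70, 0.82 and 0.49, in the same order of genes, with adjusted p of 0.633 to 0.724. The lowest values were 0.19 for Nqo1 (without array 4 of 0.5M), 0.29 for Ephx1 and 0.17 for Akr7a3 (both without array 1 of 0.5M), and 0.18 for Srxn1 (without array 3 of 0.5M). The spread within groups was large for the same genes. The residual SD was 0.57 for Akr7a3, 0.45 for Ephx1, 0.34 for Srxn1 and 0.32 for Nqo1, larger than in 99%, 97.9%, 95.4% and 94.2% of transcripts, whose median was 0.15. Txnrd1 and Keap1 lay near that median, at 0.14 each.

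The differences between M and C lay in the liver channel. In Cy5 alone they were 0.88 for Nqo1, 1.24 for Ephx1 and 1.13 for Akr7a3, while the Cy3 reference signal of the same probes differed by -0.01, -0.02 and -0.02. After removal of group and slide means, Pearson's r over the 16 arrays was 0.76 between Nqo1 and Ephx1, 0.70 between Akr7a3 and Ephx1, and 0.50 between Nqo1 and Akr7a3. Srxn1 had r of 0.69 with Akr7a3, 0.36 with Ephx1 and 0.08 with Nqo1. Keap1 had r of 0.76 with Nqo1, 0.48 with Ephx1 and 0.10 with Akr7a3. For Nfe2l2 r was -0.43 with Nqo1, -0.31 with Ephx1, -0.15 with Akr7a3 and 0.34 with Srxn1. With only slide means removed, r of Nfe2l2 was 0.39 with Nqo1, 0.43 with Ephx1, 0.36 with Akr7a3 and 0.47 with Srxn1. On that measure r of Keap1 was 0.13 with Nqo1, -0.03 with Ephx1 and -0.16 with Akr7a3, so several signs depended on the centring. These are descriptions, as the genes share each array's RNA and hybridisation.

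**Figure D4:**
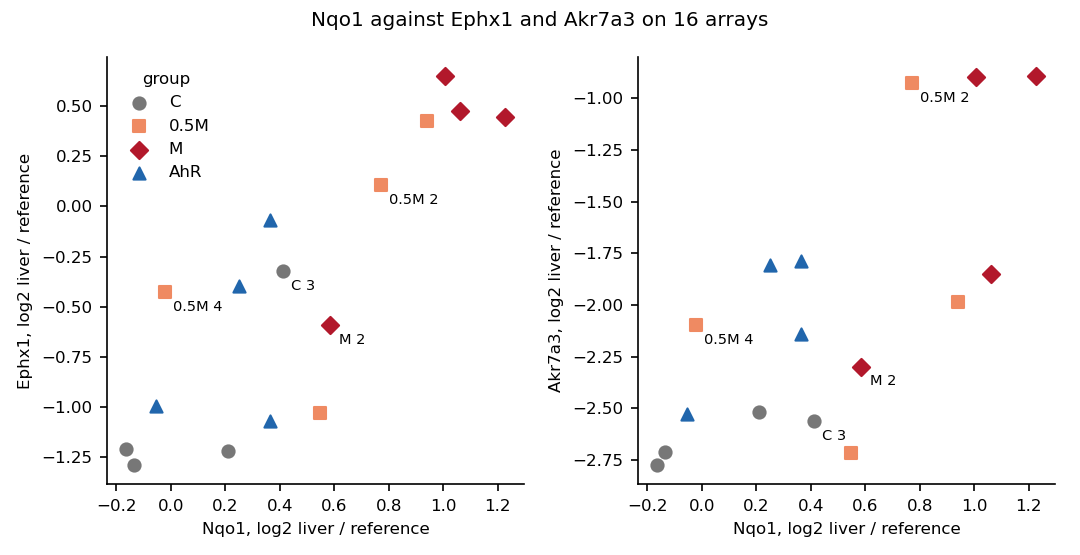
Log2 ratio of Nqo1 (horizontal) against Ephx1 and Akr7a3 (vertical) on 16 arrays, marked by group. In the plot of Ephx1 3 arrays of M sit at the upper right, and array 2 of M lies apart from them, nearer to C.

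The transcripts most like Nqo1 over the 16 arrays, after removal of slide means, were Ephx1 (r = 0.90), the glutathione transferase Gsta4 (0.89), the retinal dehydrogenase Aldh1a1 (0.88), the sulfotransferase Sult1b1 (0.87) and the glutathione transferase Gsta6 (0.87). The differences between M and C shared by these transcripts enter that likeness, so the choice favours genes that differ between M and C. Against C in M, Gsta4 differed by 0.78 ± 0.13 (adjusted p = 0.0105) and Aldh1a1 by 1.84 ± 0.28 (adjusted p = 0.00673), both called (background 0.319%). Without array 4 of C the value of Gsta4 was 0.72 (adjusted p = 0.0631). Its call was also lost with the scanner's own ratios (0.63, adjusted p = 0.081), on slide 1 or slide 2 alone (adjusted p = 0.75 and 0.095) and with median centring (0.46, adjusted p = 0.997). That of Aldh1a1 was lost on either slide alone, with median centring, and without the 5 arrays that carried other tissues (1.82, adjusted p = 0.0661). The values were 1.22 ± 0.26 for Sult1b1 (adjusted p = 0.0641) and 0.39 ± 0.09 for Gsta6 (adjusted p = 0.0921).

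Of 40 further genes of the pathway, listed with earlier results of these data known, 32 were tested. Against C, 24 were higher in M (median difference 0.18), 29 in 0.5M (0.15) and 25 in AhR (0.09), where 49.4%, 48.8% and 50.1% of all transcripts were higher. Limma called 1 of the 32 in M (background 0.319%) and none in 0.5M or AhR (0.0152% and 0.00761%). At an unadjusted p under 0.05, 11 were higher and none lower in M, 7 were higher and 1 lower in 0.5M, and 6 were higher and none lower in AhR. The background shares at that level were 4.53% higher and 5.61% lower in M, 2.61% and 3.92% in 0.5M, and 1.99% and 1.77% in AhR. The gene that passed was Ugt1a6, which glucuronidates planar phenols and is, like Nqo1, a known target of AhR. It read -0.02, 0.59, 0.56 and 0.23 in C, 1.10, 1.16, 0.94 and 0.74 in 0.5M, 1.56, 1.23, 1.43 and 1.55 in M, and 0.68, 0.64, 0.66 and 0.90 in AhR. All arrays of the 3 exposed groups lay above those of C, and those of M above the rest. Of all transcripts, 2.11% in M, 1.38% in 0.5M and 0.981% in AhR lay above C without overlap. Ugt1a6 rose 2.15-fold in M (1.10 ± 0.14, adjusted p = 0.000665). It differed from C by 0.65 in 0.5M (adjusted p = 0.390) and 0.38 in AhR (adjusted p = 1), and it was 0.72 ± 0.14 higher in M than in AhR (adjusted p = 0.0366). The latter call was lost without array 1, 3 or 4 of M (0.112, 0.112 and 0.136) or without any 1 of the AhR arrays 1 to 4 (0.0741, 0.117, 0.119 and 0.0702). It was also lost on either slide alone (0.826 and 0.213), with a replicate block (0.0713) and without the 5 arrays with other tissues (0.158). The same held with median centring, the scanner's own ratios (0.144), the authors' table (0.0501), no filter on dim probes (0.059) and Cy5 alone (0.171). The call in M against C was kept without any 1 array and lost on either slide alone (0.302 and 0.0664) and with arrays centred on the median only (0.997).

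By role, 4 of 8 listed partners and controls of NRF2 were tested. Their median difference from C was 0.14 in M, 0.17 in 0.5M and 0.17 in AhR, with all 4 above C each time, in comparisons that share the C arrays and where 48.8% to 50.1% of all transcripts were above C. The small MAF protein Mafg, which pairs with NRF2, differed by 0.29 ± 0.10 in AhR (adjusted p = 1) and 0.10 in M. Of genes that supply NADPH, the malic enzyme Me1 read -1.04, -0.36, -0.99 and -1.10 in C and 0.07, -0.30, -0.31 and 0.23 in M, where every array lay above C, with a difference of 0.79 ± 0.22 (adjusted p = 0.184). In 0.5M it was 0.88 ± 0.22 (adjusted p = 0.578) and in AhR 0.47 ± 0.22, with 3 of 4 arrays above C in both. Among 12 tested detoxication enzymes and pumps, the median was 0.19 in M and 0.21 in 0.5M. The canalicular export pump Abcc2 differed from C by 0.53 ± 0.11 in M (adjusted p = 0.0593) and 0.49 ± 0.11 in 0.5M (0.471), and by 0.14 in AhR. Ugdh, which makes the glucuronic acid donor that Ugt1a6 uses, differed by 0.39 ± 0.09 in M (adjusted p = 0.0710), 0.26 in 0.5M and 0.27 in AhR. In each of these exposed groups all arrays of Ugdh lay above C (background 2.11% in M, 1.38% in 0.5M and 0.981% in AhR). Mafg, Me1, Abcc2 and Ugdh were named for a small p against C, which favours such separation. The thioredoxin and peroxiredoxin genes had a median of 0.10 in M, the iron and heme genes 0.21, and the glutathione genes 0.25, and none of these groups held a called gene.

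**Figure D5:**
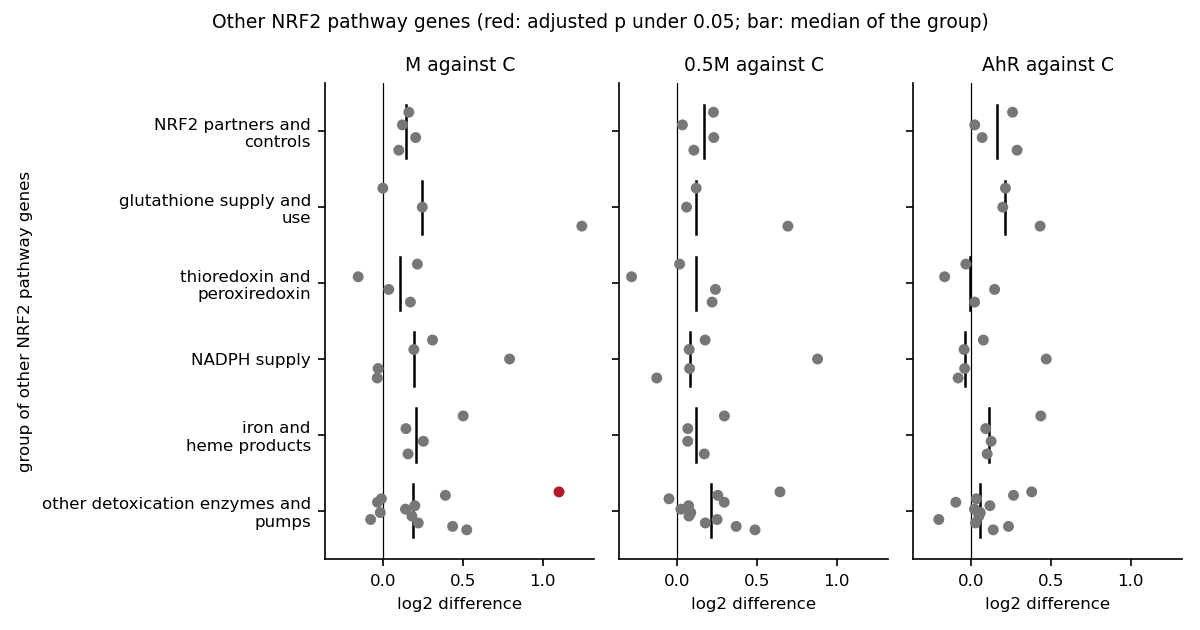
Log2 difference from C of 32 further NRF2 pathway genes (points) in M, 0.5M and AhR, by role, with the median of each role (bar) and called genes in red. Ugt1a6 in M is the only red point, and most points lie to the right of 0.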

How the data were processed

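Values came from the scan files of 16 two-colour arrays. Per the file headers, Agilent Feature Extraction 10.7.3.1 wrote for 62976 spots the median signal and background as intensity, LogRatio on the log10 scale, and quality marks (unit other, 0 or 1) deposited as the software made them. The authors also deposited a table of log2 ratios. Set against ratios without background subtraction after loess, its columns correlated at 0.977 to 0.998 with their own array and at most 0.878 with another, with slopes of 0.946 to 0.996 and column medians of -0.0093 to 0.0125, so direction, scale and centring are those of log2 Cy5 over Cy3. It served as an alternative.

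Signals were corrected with normexp (offset 50) in limma 3.58.1 (R 4.3.3) and normalized by loess, control spots at weight 0. Spots marked non-uniform or population outlier were left out, and the rest averaged per probe. Median signals were used where the plan named means, since the files hold medians. Probes marked well above background (Cy5) on 4 or more arrays were kept (14524 probes), and the brightest probe of a gene was used, so Txnrd1 rests on 1 of its 2 probes. Of the 30367 probes, 18004 had a symbol through RefSeq. A single limma model held a mean per group and a slide term. Tests were two-sided, adjusted by Benjamini-Hochberg over 13146 transcripts, threshold 0.05, and were checked on simulated data. No member spot was saturated. Promoters and figures used Python 3.11.15. Whether probes also bind related genes was not tested.

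The members and gene lists were chosen with earlier results of these data known. Beyond the members, genes were named when called, when among the 3 smallest unadjusted p of the further pathway genes in a comparison with C, when among the 5 most like Nqo1 (the member with the smallest F-test p), or as exposure checks. The alternatives tried were other backgrounds, normalizations, filters, probe rules, slide and replicate terms, array weights, each slide alone and arrays left out.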

Additional observations from a re-analysis of the deposited data

Results flagged for a closer look

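The 36 sets of 4 arrays (9 members in 4 groups) were searched for an array whose gap to its nearest neighbour exceeded Dixon's 95% critical share of the range of the group, which chance gives in about 1 in 20 sets. Both arrays found concern Ephx1. Array 3 of C read -0.32, above the other C arrays, of which the nearest read -1.21. Array 2 of M read -0.59, below the other M arrays, of which the nearest read 0.44. Array 2 of M is one of the 2 arrays with muscle transcripts, whose part in this value was not tested. Without array 3 of C the difference between M and C in Ephx1 was 1.40 (adjusted p = 0.0625), and without array 2 of M it was 1.45 (adjusted p = 0.0286).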

How the results depend on the processing

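In the main analysis 0 members were called in each of the 6 comparisons and the F-test. Over 32 alternatives this count moved between M and C in 7. It was 2 (Nqo1 and Ephx1) with probes well above background on all 16 arrays (7 members and 6467 transcripts left) and without the 2 arrays with muscle transcripts, and 1 (Nqo1) with array weights. Leaving out 1 array gave 0 to 2, above 0 without array 2 or 4 of 0.5M or array 2 of M. Without the 2 muscle-bearing arrays Nqo1 was also called between M and AhR (count 1, adjusted p = 0.0239) and in the F-test (1), and leaving out 1 array gave 0 to 1 for the F-test. Without all 5 arrays that carried other tissues no member was called, with Nqo1 at 0.0632 and Ephx1 at 0.154 between M and C. The 5 members at an unadjusted p under 0.05 between M and C fell to 3 at the lowest, and the 4 between 0.5M and C to 0 with median centring. The 0 between AhR and C went up to 3 on slide 2 alone, and the 0 between M and 0.5M to 4 without array 2 of 0.5M. None of these alternatives turned a called value. Among 54 member differences the sign turned 68 times over the 32 alternatives, each time with no call on either side. The cause of these shifts was not tested.

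Whether replicate numbers pair the arrays was not settled. With group means removed, same-numbered arrays correlated at 0.16 on average (other numbers -0.05), and 9 of 16 arrays matched their own number best. Same-numbered arrays share a slide. With group and slide means removed, they correlated at -0.06 on average (other numbers 0.02), and 1 of 16 matched its own number best. Removing slide means by itself pulls arrays of a slide towards negative correlation, so these values cannot decide the question. With the number as a replicate block 1 member was called between M and C (Nqo1, adjusted p = 0.0257), and the other comparisons stayed at 0.

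The count of all transcripts called between M and C, 42 in the main analysis, was 1 with median centring, 4 and 7 on slides 1 and 2 alone, 20 with the scanner's own ratios, 22 to 53 without 1 array, 28 with no filter and 66 with array weights. Between M and AhR, 35 in the main analysis, it was 0 with median centring and 64 with array weights. Median centring also left Cyp1a1 in M as the one called exposure check (adjusted p = 0.011), with Cyp1a1 in 0.5M at 0.0697. Under it Nqo1, Ephx1 and Akr7a3 differed by 0.65, 0.97 and 0.89. Cy5 alone, an alternative chosen after seeing the data, called no member. In the authors' deposited table the differences were 0.89, 1.25 and 1.17.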

Other observations

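Gpx2, a glutathione peroxidase best known from the gut epithelium and a known NRF2 target, was singled out here after its values were seen. It was among the 3 tested genes of glutathione supply and use, and differed from C by 1.25 ± 0.37 in M (limma, adjusted p = 0.206), 0.70 in 0.5M and 0.43 in AhR. Of its 2 probes, the one more often well above background was so on 12 of the 16 arrays, so part of these values rests on dim signal.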
